A study of Neurospora crassa with 30 samples.

Results

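Mycelia of the filamentous fungus Neurospora crassa exposed to trehalose were compared with mycelia exposed to maltose by RNA-seq. The 6 samples were taken by their labelled carbon source, 3 on trehalose and 3 on maltose, out of 30 samples on 10 carbon sources. The pair of sugars was chosen with earlier results of these data known. Both groups were of the strain FGSC 2489 with the wild type genotype, and the labelled tissue was mycelia. Each culture was grown from conidia for 16 h in Vogel's minimal medium with 2% sucrose, in constant light at 25 °C and 200 rpm, washed in medium without a carbon source, and then held for 4 h with trehalose or maltose, each at 2 mM. The growth text of the labels names only medium without carbon for those 4 h, so the sugars come from the carbon source label and the concentration from the study's methods. The other 8 carbon sources (avicel, cellobiose, fructose, glycerol, mannose, sorbose, xylose and xyloglucan) serve below only to place the levels seen on the 2 sugars. Avicel and xyloglucan were dosed by weight and the remaining sources at 2 mM, so ranks among the 10 sources compare unequal doses. For trehalose and maltose a single strain, dose and time point were measured, so the values say nothing of earlier or later responses.

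Trehalose and maltose are isomeric disaccharides made of a pair of glucose units held by an alpha bond. In maltose the bond runs from the first carbon of one glucose to the fourth carbon of the next, as in starch, and leaves a reducing end. In trehalose it joins the first carbons of both units, and no reducing end is left. Fungi make trehalose themselves as a reserve and stress protectant and split it with trehalases, whereas maltose is mainly a product of starch breakdown that alpha-glucosidases and glucoamylases cleave; either route ends in glucose. COL-26 is a zinc binuclear cluster transcription factor that regulates starch use in N. crassa. The comparison asked which genes told the 2 sugars apart.

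Of 8501 genes tested, 199 were called higher in trehalose (2.34% of genes tested) and 219 higher in maltose (2.58%), together 4.92%. A call required a fold change above 2 and a Benjamini-Hochberg adjusted p under 0.01 in edgeR's quasi-likelihood test. Fold changes are given on the log2 scale as trehalose over maltose, with the standard error of the fit after the ± sign, so a negative value is a gene higher in maltose. Levels are CPM (gene counts relative to the TMM-scaled library total) in replicates 1, 2 and 3, and are compared between samples, never between genes. Without TMM scaling the calls moved to 122 higher in trehalose and 338 higher in maltose, and the median of all genes moved from 0.02 to -0.11. The share of calls that were higher in trehalose was 47.6% with TMM and 26.5% without it.

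All 199 genes called higher in trehalose, and 218 of the 219 called higher in maltose, had 3 trehalose values that did not overlap the 3 maltose values, which was also true of 45.2% of all genes tested. Most changes were of moderate size: 16 genes were more than 4-fold higher in trehalose and 31 more than 4-fold higher in maltose. In these bulk samples, a change in the share of a cell type and a change in RNA per cell cannot be told apart. The 95% interval of the fold change lay inside a 2-fold change either way for 6394 genes (75.2%). Total reads on genes ran from 13878553 to 17835881 in the 6 samples. Across genes, which are not independent replicates, Pearson's r of log2 CPM was 0.991 to 0.994 between trehalose replicates, 0.988 to 0.991 between maltose replicates and 0.963 to 0.987 between the sugars.

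**Figure D1:**
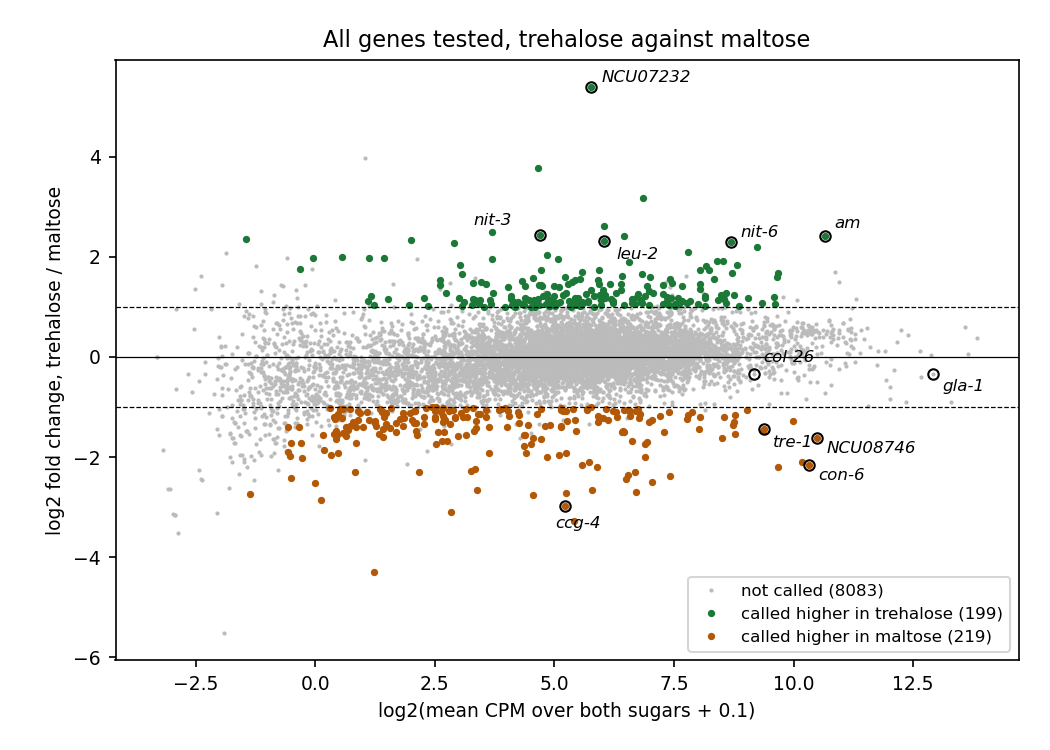
The log2 fold change of each gene tested, trehalose over maltose, is plotted against its mean level over both sugars, with 0.1 CPM added before the log. Green points are the 199 genes called higher in trehalose, orange points the 219 called higher in maltose, grey points the rest, and dashed lines mark a 2-fold change; circled genes are named in the text, with col-26 and gla-1 between the dashed lines.

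The 2 groups of called genes sat differently among the 10 carbon sources. Among the 199 genes higher in trehalose, 96 had their highest mean of all 10 sources in trehalose, against 18.7% of all genes. Of the 199, 16 had their lowest mean in maltose. Among the 219 genes higher in maltose, 30 had their highest mean in maltose, against 5.61% of all genes, whereas 90 had their lowest mean of all sources in trehalose, against 16.1%. For 179 of these 219 genes trehalose gave 1 of the 2 lowest means, against 29.8% of all genes. In 166 of the 219 it did so while maltose was in the middle of the order, at ranks 3 to 8. These ranks are descriptions, since the means on the 2 sugars also enter the calls. For the counts of 16 and 166 no share of all genes is given, so they have no background to be read against.

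The levels of col-26 (NCU07788) were 501, 447 and 565 CPM in trehalose and 792, 481 and 654 CPM in maltose. The groups overlapped, because maltose replicate 2 lay inside the trehalose range, and the difference was small (log2 fold change -0.35 ± 0.12, adjusted p = 0.031). The 95% interval, -0.60 to -0.10, excludes a 2-fold difference. An exact two-sided permutation test over the 3 against 3 samples gave p = 0.3, where the smallest p this design allows is 0.1. Maltose and trehalose gave the 2 highest means of the 10 sources, and the highest mean elsewhere was 318 CPM on sorbose. Without maltose replicate 2 the difference was -0.52 (adjusted p = 0.0015), still under 2-fold. Since the pair of sugars was chosen with earlier results of these data known, the small difference in col-26 is a description.

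The transcript of the trehalase gene tre-1 was higher in maltose than in trehalose. In tre-1 (NCU00943, chromosome I, 6632519 to 6635173) the levels were 361, 303 and 410.2 CPM in trehalose and 1238, 679 and 999 CPM in maltose. Every maltose sample was above every trehalose sample (log2 fold change -1.44 ± 0.19, adjusted p = 9.1e-06), and the call held without any single replicate. The 2 sugars nevertheless gave the 2 highest means of the 10 sources, above 299 CPM on sorbose. Levels of the other 3 genes on the list of trehalose metabolism overlapped between the sugars.

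For the second trehalase gene, tre-2 (NCU04221), the fold change was 0.03 with an interval of -0.34 to 0.41. The genes of trehalose synthesis gave 0.00 for NCU00793, annotated as trehalose phosphate synthase (-0.46 to 0.46), and -0.08 for ccg-9 (NCU09559), a clock-controlled trehalose synthase gene (-0.79 to 0.63). All of these intervals exclude a 2-fold difference.

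Of 12 genes of maltose and starch breakdown, 4 were called higher in maltose (33.3%, against 2.58% of all genes) and 1 higher in trehalose (8.33%, against 2.34%), with a median of -0.77 against 0.02 for all genes. The amylase genes split in direction. NCU08746, a starch-active lytic polysaccharide monooxygenase with a starch binding domain, had 622, 759 and 741 CPM in trehalose and 2999, 1834 and 1713 CPM in maltose (log2 fold change -1.63 ± 0.24, adjusted p = 3.1e-05). The alpha-amylase gene gh13-2 (NCU09805) had 130.5, 217 and 183 CPM in trehalose and 699, 495 and 437 CPM in maltose (log2 fold change -1.62 ± 0.17, adjusted p = 1.6e-06). Both were higher in all maltose samples, and both sugars still ranked above the other 8 sources, whose highest means were 610.3 and 103 CPM, each on sorbose.

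A different order was seen in gh13-6 (NCU05873, annotated as the amylase Amy1), with 96.2, 73 and 99.7 CPM in trehalose and 28.5, 33.2 and 36.8 CPM in maltose. It was the one member called higher in trehalose (log2 fold change 1.45 ± 0.18, adjusted p = 4.8e-06), where its mean ranked 3 of 10 and that on maltose 7. The third amylase gene, gh13-1 (NCU08131), had a fold change of -0.01 with an interval of -0.22 to 0.20, and its means on maltose and trehalose were the 2 lowest of the 10 sources. The amylase genes thus took all 3 courses: higher in maltose, higher in trehalose and within 2-fold.

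Among genes whose products release glucose from maltose or from starch ends, the alpha-glucosidase gene gh13-4 (NCU06523) differed most. Its levels were 3.63, 2.35 and 3.75 CPM in trehalose and 16.1, 18.3 and 12.7 CPM in maltose (log2 fold change -2.27 ± 0.22, adjusted p = 1.6e-07). Next to it on chromosome IV lies NCU06522, annotated as a maltose permease, with 24.9, 22.3 and 22 CPM in trehalose and 55.2, 44.7 and 40.1 CPM in maltose (log2 fold change -1.02 ± 0.20, adjusted p = 0.00047). The neighbours, at 1516688 to 1518732 for NCU06522 and 1519863 to 1522161 for gh13-4, both had their highest mean of 10 sources in maltose. The fold change of NCU06522 was close to the threshold, and its call was lost without trehalose replicate 2 (-0.99), trehalose replicate 3 (-0.98) or maltose replicate 1 (-0.88).

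Glucoamylase and the other alpha-glucosidases differed less. In gla-1 (NCU01517), the gene of the secreted glucoamylase that cuts single glucose units from starch, levels were 7291, 7353 and 5862 CPM in trehalose and 11698, 6458 and 7696 CPM in maltose. The groups overlapped and the fold change did not pass the test (log2 fold change -0.33 ± 0.24, adjusted p = 0.29), with an interval of -0.83 to 0.16. For gh31-3 (NCU04674, alpha-glucosidase) and gla-2 (NCU02583, annotated as glucoamylase-2 and alpha-glucosidase) the adjusted p was under 0.01 but the change under 2-fold (-0.85 and -0.72). Both had their highest mean of the 10 sources in maltose. Without maltose replicate 2, gh31-3 reached -1.04 and was called. NCU03098, annotated as a glycosyl hydrolase, was the fourth gene called higher in maltose (log2 fold change -1.73 ± 0.31, adjusted p = 0.00023). The alpha-glucosidase genes gh31-1 (-0.82, adjusted p = 0.020) and gh13-5 (-0.21, adjusted p = 0.28) and the maltohexaosidase gene gh13-3 (-0.55, adjusted p = 0.022) were not called. Means of gh31-1 were low among the 10 sources, at rank 8 in maltose and 10 in trehalose. Without trehalose replicate 3 it was called (-1.12, adjusted p = 0.0059).

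**Figure D2:**
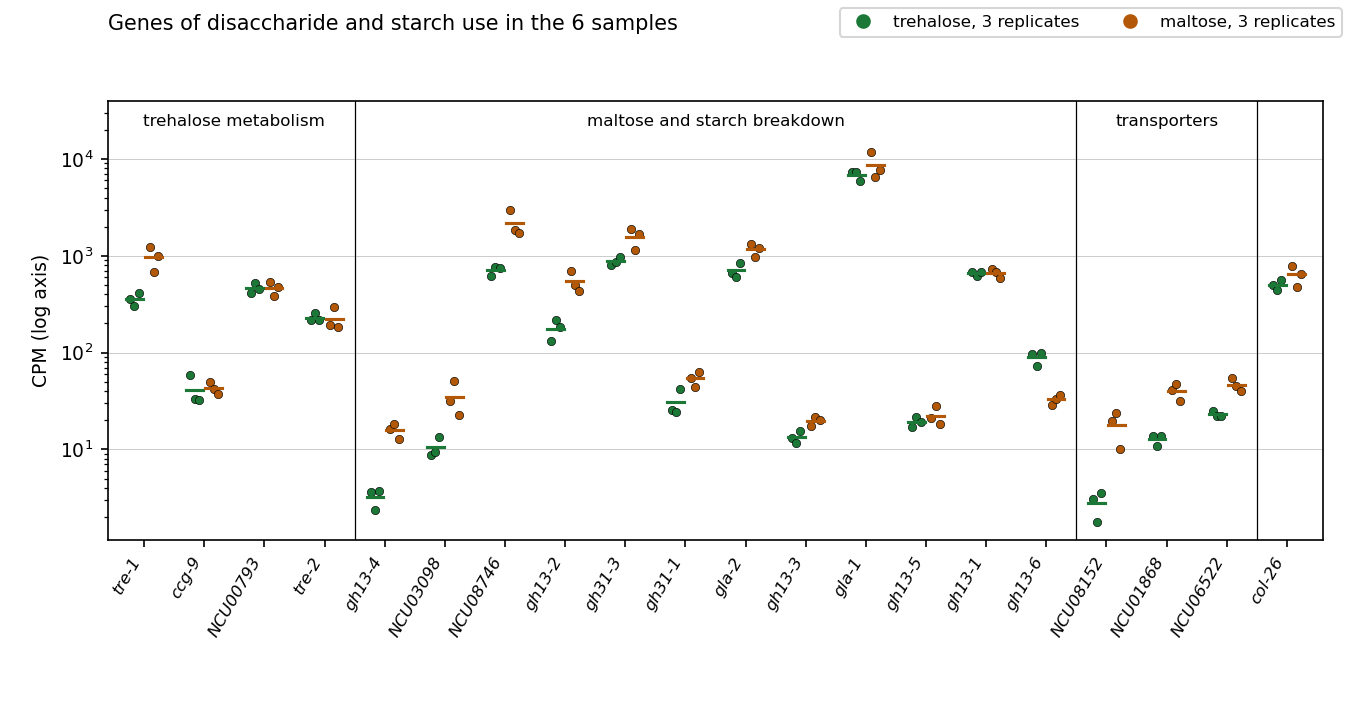
The level of each gene in CPM on a log axis is shown for the 3 trehalose samples (green) and the 3 maltose samples (orange), with a bar at the mean. The 4 genes of trehalose metabolism, the 12 of maltose and starch breakdown and the 3 transporters called are ordered by fold change, with col-26 at the right; tre-1 separates by sugar with maltose on top, gh13-6 with trehalose on top, and gla-1, gh13-1 and col-26 overlap.

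Sugar uptake genes leaned toward maltose. Of 21 sugar transporter genes, 3 were called higher in maltose (14.3%, against 2.58% of all genes) and 0 higher in trehalose (against 2.34%), and the median was -0.59. At an adjusted p under 0.01 and any fold, 6 were higher in maltose and 0 in trehalose, against 9.33% and 10.3% of all genes. NCU08152, annotated as a high affinity glucose transporter, had 3.1, 1.8 and 3.55 CPM in trehalose and 19.7, 23.9 and 10.1 CPM in maltose (log2 fold change -2.66 ± 0.35, adjusted p = 1.1e-05). In NCU01868, annotated as the maltose permease MalP, levels were 13.9, 10.9 and 13.8 CPM in trehalose and 40.7, 47.5 and 31.6 CPM in maltose (log2 fold change -1.63 ± 0.22, adjusted p = 1.5e-05). Neither gene's groups overlapped, and NCU01868 had its lowest mean of the 10 sources in trehalose. Neither was highest in maltose, where NCU08152 ranked 5 and NCU01868 ranked 6 of the 10 sources. The highest means were 43.6 CPM on xyloglucan for NCU08152 and 96.7 CPM on avicel for NCU01868. The high-affinity glucose transporter gene hgt-1 (NCU10021) was at 3428, 2868 and 3580 CPM in trehalose and 5396, 4530 and 4977 CPM in maltose, a difference that missed the threshold (log2 fold change -0.59 ± 0.20, adjusted p = 0.026). The summed level of the 21 genes was 10578 to 14189 CPM in trehalose and 15303 to 17327 CPM in maltose. Most of that sum came from hgt-1, NCU05627 and NCU04963, none of which was called. Levels of NCU05627 (-0.16, adjusted p = 0.77) and NCU04963 (-0.26, adjusted p = 0.51) overlapped between the sugars. Without TMM scaling 5 members were called higher in maltose.

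Calls among glycolysis genes were near the share for all genes. Of 17 members, 1 was called higher in maltose and 0 higher in trehalose (5.88% in all, against 4.92% of all genes), with a median of -0.07, and the interval of 12 members lay inside a 2-fold change. The called member was NCU02702, annotated as a glucokinase, the type of enzyme that phosphorylates glucose (log2 fold change -1.05 ± 0.23, adjusted p = 0.0014). Its call was lost without trehalose replicate 2 (-0.96, adjusted p = 0.012) or maltose replicate 2 (-0.77, adjusted p = 0.020). None of 7 genes of the glyoxylate cycle and gluconeogenesis was called (median 0.30), nor the single glycogen metabolism gene (0.31), nor any of the 7 genes of the quinic acid cluster (median -0.13). Of 12 regulators of carbon and nitrogen use, which include cre-1, clr-1, clr-2, xlr-1, vib-1, nit-2 and cpc-1 beside col-26, 0 were called and 11 had intervals inside a 2-fold change.

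Genes of nitrogen assimilation were among those higher in trehalose. Of 19 genes, 4 were called higher in trehalose (21.1%, against 2.34% of all genes and 5.29% of genes with a product name). The count higher in maltose was 0, although the median was only 0.33. The gene am (NCU01195, chromosome V, 3200862 to 3203095), which encodes the NADP-dependent glutamate dehydrogenase that fixes ammonium on 2-oxoglutarate, had 3197, 2830 and 2096 CPM in trehalose and 532, 322 and 661 CPM in maltose. Its lowest trehalose sample was above its highest maltose sample (log2 fold change 2.42 ± 0.35, adjusted p = 2.6e-05), and trehalose gave the highest mean of the 10 sources, where the next was 940.2 CPM on cellobiose. The call of am held without any single replicate.

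The nitrate pathway moved with it. Nitrate reductase, which turns nitrate into nitrite, is encoded by nit-3 (NCU05298), with 41.6, 35.6 and 53.5 CPM in trehalose and 7.92, 8.04 and 8.28 CPM in maltose (log2 fold change 2.43 ± 0.22, adjusted p = 1.6e-07). Nitrite reductase, which makes ammonium from nitrite, is encoded by nit-6 (NCU04720), with 797, 652 and 596 CPM in trehalose and 112, 115 and 192 CPM in maltose (log2 fold change 2.29 ± 0.38, adjusted p = 0.00011). Both separated the sugars without overlap, and for nit-3 the mean in maltose was the lowest of the 10 sources. NCU03257, annotated as the ammonium transporter MEP1, had 435, 392 and 325 CPM in trehalose and 134, 93.3 and 191 CPM in maltose (log2 fold change 1.46 ± 0.20, adjusted p = 1.7e-05). The 2 glutamine synthetase genes, gln-1 and gln-2, gave 0.59 and 0.90 and were not called, and the global nitrogen regulator nit-2 gave 0.32.

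Genes of branched-chain amino acid synthesis were mostly higher in trehalose. This list, like those of other amino acids, fatty acids, sterols, lipases and sexual development below, was drawn up after the values had been seen, so its counts are descriptions only. Of 15 genes, 8 were called higher in trehalose (53.3%, against 2.34% of all genes and 5.29% of genes with a product name). In the other direction, 1 was called higher in maltose (6.67%, against 2.58% and 2.75%). The median was 1.04. In leu-2 (NCU04385), the isopropylmalate dehydratase gene of leucine synthesis, levels were 112, 118 and 97.9 CPM in trehalose and 22.3, 11.7 and 32.2 CPM in maltose (log2 fold change 2.31 ± 0.36, adjusted p = 5.6e-05). For ilv-6 (NCU04754), annotated as a branched-chain-amino-acid aminotransferase, they were 56.8, 43 and 39 CPM in trehalose and 11.5, 6.99 and 15.6 CPM in maltose (log2 fold change 2.02 ± 0.36, adjusted p = 0.00021). The highest of the 10 means was in trehalose for both, and in maltose replicate 2 each had its lowest value. The ketol-acid reductoisomerase gene ilv-2 (NCU03608) and the acetolactate synthase small subunit gene ilv-4 (NCU01666) gave 1.67 ± 0.31 and 1.45 ± 0.30. The exception was NCU08771, annotated as an acetolactate synthase, which was higher in maltose (log2 fold change -1.45 ± 0.34, adjusted p = 0.0025). It lies beside con-6 on chromosome III, and its call was lost without trehalose replicate 1 (-1.21), trehalose replicate 2 (-1.23) or maltose replicate 2 (-1.09). The 8 calls became 5 without trehalose replicate 1 and 5 without maltose replicate 2.

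Other amino acid pathways showed the same direction at smaller size. Of 57 genes, 9 were called higher in trehalose (15.8%, against 2.34% of all genes and 5.29% of genes with a product name). The count higher in maltose was 0. The median was 0.48, and 51 had a fold change above 0, against 52.2% of all genes. The largest were NCU04303, annotated as asparagine synthetase 2 (log2 fold change 1.73 ± 0.29, adjusted p = 0.00013), lys-6, the homoaconitase of lysine synthesis (log2 fold change 1.41 ± 0.26, adjusted p = 0.00032), aro-3, the chorismate synthase of aromatic amino acids (log2 fold change 1.22 ± 0.22, adjusted p = 0.0002), and hom-1, the aspartate-semialdehyde dehydrogenase of the threonine and methionine branch (log2 fold change 1.18 ± 0.23, adjusted p = 0.00053). The count was 5 without maltose replicate 2.

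Fatty acid synthesis genes were higher in trehalose. Of 11 genes, 7 were called (63.6%, against 2.34% of all genes and 5.29% of genes with a product name). The count higher in maltose was 0, and the median was 1.17. The largest change was in NCU05259, annotated as acyl-CoA desaturase 1, with 1006, 1148 and 814 CPM in trehalose and 164, 102 and 385 CPM in maltose (log2 fold change 2.19 ± 0.40, adjusted p = 0.00029). In cel-1 (NCU07308), which encodes the alpha subunit of fatty acid synthase, levels were 353, 388 and 331 CPM in trehalose and 61.4, 36.5 and 154 CPM in maltose (log2 fold change 2.09 ± 0.44, adjusted p = 0.00094). Its neighbour on chromosome IV, cel-2 (NCU07307), encodes the beta subunit and had 441, 489 and 409 CPM in trehalose and 102, 60.4 and 218 CPM in maltose (log2 fold change 1.81 ± 0.41, adjusted p = 0.0018). In all 3 genes maltose replicate 3 was the maltose sample nearest to trehalose and maltose replicate 2 the farthest. Without maltose replicate 3 the fold changes were 2.90 for NCU05259, 2.87 for cel-1 and 2.46 for cel-2. The call of cel-2 was lost without maltose replicate 1 (1.68, adjusted p = 0.013) or maltose replicate 2 (1.48, adjusted p = 0.017), and the 7 calls of the list became 4 without maltose replicate 1. The gene NCU09497, annotated as a bifunctional fatty acid desaturase, spread less (log2 fold change 1.89 ± 0.27, adjusted p = 2.4e-05).

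Sterol synthesis pointed the same way, with a median of 1.02 and 0 genes called higher in maltose. Of 7 genes, 5 were called higher in trehalose (71.4%, against 2.34% of all genes and 5.29% of genes with a product name). They included NCU02624, the cytochrome P450 51 that demethylates lanosterol and is the target of azole antifungals (log2 fold change 1.17 ± 0.15, adjusted p = 8.4e-06), and NCU03922, the hydroxymethylglutaryl-CoA synthase of the mevalonate pathway (log2 fold change 1.15 ± 0.18, adjusted p = 6e-05). Fold changes of the 5 ran from 1.01 to 1.17, close to the threshold, and the count was 3 without trehalose replicate 1, maltose replicate 1 or maltose replicate 2 and 2 without trehalose replicate 2. Lipid breakdown genes went the other way. Of 12 lipases and sterol esterases, 3 were called higher in maltose (25%, against 2.58% of all genes) and 0 higher in trehalose. The median was -0.47. NCU04475, annotated as lipase B, had 31.5, 12.4 and 19.6 CPM in trehalose and 89.9, 90.1 and 112 CPM in maltose (log2 fold change -2.20 ± 0.34, adjusted p = 5e-05). The sterol esterase gene NCU09575 (log2 fold change -2.0 ± 0.31, adjusted p = 4.9e-05) and the lipase gene NCU03639 (log2 fold change -1.3 ± 0.14, adjusted p = 2.2e-06) were the others, and none of the 3 overlapped between sugars.

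**Figure D3:**
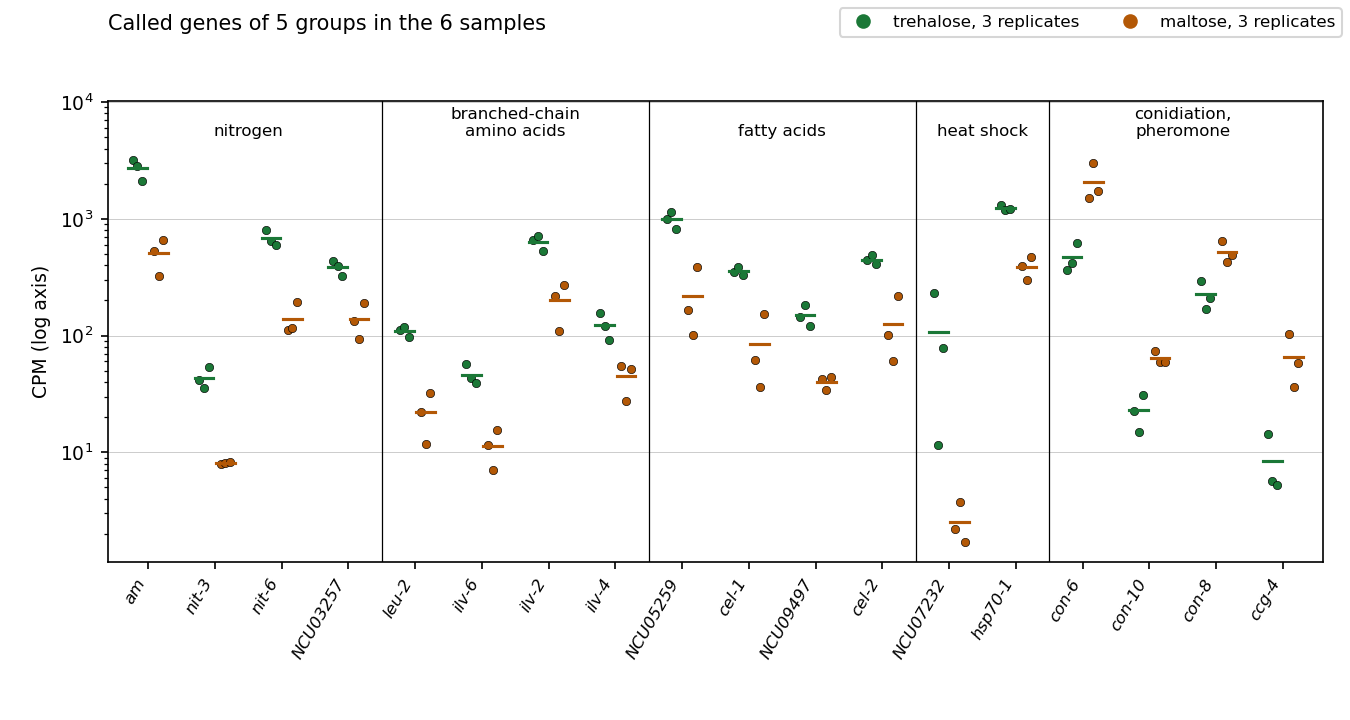
The level of each gene in CPM on a log axis is shown for the 3 trehalose samples (green) and the 3 maltose samples (orange), with a bar at the mean. The genes of nitrogen use, branched-chain amino acids, fatty acids and heat shock sit higher in trehalose, those of conidiation and the pheromone precursor gene ccg-4 higher in maltose, and NCU07232 spreads most among trehalose samples.

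Genes for making ribosomes were higher in trehalose by a modest amount. Of 54 ribosome biogenesis genes, 13 were called higher in trehalose (24.1%, against 2.34% of all genes and 5.29% of genes with a product name). The count higher in maltose was 0, and the median was 0.78. At an adjusted p under 0.01 and any fold, 35 of the 54 were higher in trehalose, against 10.3% of all genes, and in 44 all 3 trehalose values lay above all 3 maltose values, against 23.9%. Trehalose gave the highest mean of the 10 sources for 51 of them. NCU06272, annotated as the rRNA biogenesis protein RRP5, had 75.4, 112 and 78.9 CPM in trehalose and 28.6, 20.8 and 42.4 CPM in maltose (log2 fold change 1.54 ± 0.25, adjusted p = 7.9e-05). Its mean in maltose was the second highest of the 10 sources, so the 2 sugars led the other 8 here. The 13 calls became 6 without trehalose replicate 2, 7 without maltose replicate 2 and 7 without TMM scaling.

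Of 71 cytosolic ribosomal protein genes, 69 had a fold change above 0, against 52.2% of all genes, and the median was 0.52. Only 1 was called (1.41%, against 2.34% of all genes higher in trehalose). The summed level of the 71 was 80492 to 92280 CPM in trehalose and 55652 to 69356 CPM in maltose, which did not overlap. For 28 of the 71 the adjusted p was under 0.01 in the direction of trehalose, against 10.3% of all genes. The single call was NCU07547, annotated as the 60S acidic ribosomal protein P0 (log2 fold change 1.46 ± 0.25, adjusted p = 0.00013). In 53 of the 71 genes the interval excluded a 2-fold difference.

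The study's set of genes that depended on COL-26 leaned to trehalose, while col-26 itself was not called. The study drew up the set on other cultures, in amylose and in maltose at a higher dose. It reports that most members were also lower in wild type without a carbon source. Few were induced there by maltose, amylose or amylopectin. Whether the lean reflects COL-26 was not tested. Of 362 members tested (of 363), 63 were called higher in trehalose (17.4%, against 2.34% of all genes) and 2 higher in maltose (0.552%, against 2.58%), and the median was 0.65. The set is not separate from the lists above: it holds 43 of the 54 ribosome biogenesis genes and 6 of the 19 nitrogen assimilation genes, and 17 of its 63 calls are members of a list described here. The members with the largest changes were am, NCU08720 (log2 fold change 2.27 ± 0.29, adjusted p = 9.4e-06), NCU06911 (log2 fold change 1.95 ± 0.33, adjusted p = 0.00014) and its neighbour on chromosome VII, NCU06912 (log2 fold change 1.90 ± 0.28, adjusted p = 3.1e-05), all but am annotated as hypothetical proteins. Trehalose gave the highest mean of the 10 sources for 251 of the 362. The 63 calls became 40 without trehalose replicate 2, 35 without maltose replicate 2 and 36 without TMM scaling. In the study's starch regulon, the genes it found raised on amylose or amylopectin, 19 of 322 were called higher in trehalose (5.9%, against 2.34% of all genes) and 5 higher in maltose (1.55%, below the 2.58% of all genes), with a median of 0.35. The largest changes there were in lipase B and NCU08746, both higher in maltose, and in anx14, an annexin gene (log2 fold change 1.59 ± 0.19, adjusted p = 4.2e-06), and NCU00684, annotated as an endonuclease or phosphatase (log2 fold change 1.56 ± 0.18, adjusted p = 2.5e-06), both higher in trehalose. The 19 calls became 12 without maltose replicate 2.

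**Figure D4:**
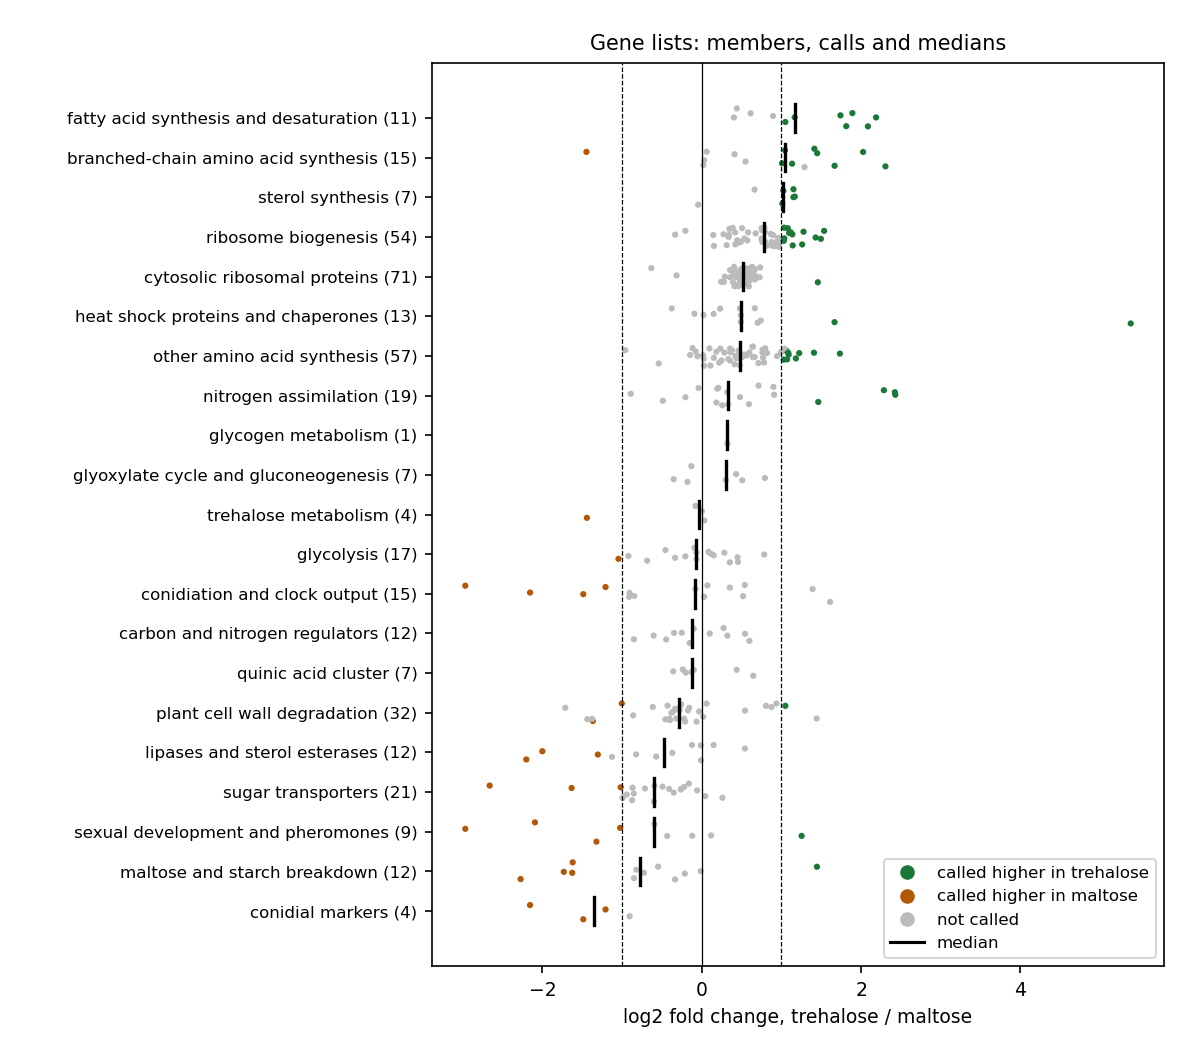
The log2 fold change, trehalose over maltose, of every tested member of each list is plotted by list, with the number tested in brackets and the median as a black bar. Green members were called higher in trehalose, orange members higher in maltose and grey members neither; dashed lines mark a 2-fold change. Medians run from -1.35 for the 4 conidial markers to 1.17 for fatty acid synthesis.

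Among called genes, the largest fold change toward trehalose belonged to a stress gene that varied widely between replicates. NCU07232, annotated as an hsp30-like small heat shock protein, had 230.4, 11.6 and 78.1 CPM in trehalose and 2.19, 3.76 and 1.69 CPM in maltose. All trehalose values were above all maltose values (log2 fold change 5.38 ± 0.80, adjusted p = 3.8e-05), but the trehalose samples themselves spread from 11.6 to 230.4 CPM, and without trehalose replicate 1 the fold change was 4.14. Maltose gave the lowest mean of the 10 sources, and the mean in trehalose was below the 393 CPM on xylose. In hsp70-1 (NCU09602), a chaperone gene of the cytosol, the samples agreed closely, at 1304, 1185 and 1216 CPM in trehalose and 394, 298 and 475 CPM in maltose (log2 fold change 1.67 ± 0.23, adjusted p = 2e-05). These were the 2 calls among 13 heat shock and chaperone genes (15.4%, against 2.34% of all genes and 5.29% of genes with a product name). The median of the 13 was 0.49. The related hsp30 gave -0.38 and was not called.

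Several other leading genes of trehalose shared its replicate 1 as the extreme sample. NCU05126, a hypothetical protein, had 272, 187 and 168 CPM in trehalose and 20.9, 16.4 and 31.6 CPM in maltose (log2 fold change 3.18 ± 0.40, adjusted p = 6.4e-06), with its highest mean of 10 sources in trehalose. NCU03208, also a hypothetical protein, had 87.1, 32.3 and 20.7 CPM in trehalose and 3.11, 3.52 and 3.59 CPM in maltose (log2 fold change 3.76 ± 0.69, adjusted p = 0.00028), and gave 2.95 without trehalose replicate 1. NCU02798 had 236, 74.9 and 29 CPM in trehalose and 19.4, 19.1 and 17.2 CPM in maltose. For the last of these, replicate 1 was more than 3 times the next trehalose sample, and the gene was no longer called without it (1.49, adjusted p = 0.11). Likewise NCU00878 went from 2.50 to 1.08 (adjusted p = 0.22) and NCU07351 from 2.41 to 1.70 (adjusted p = 0.012) without that replicate. Calls of NCU02798 and NCU00878 were lost without maltose replicates 1, 2 or 3 as well (adjusted p from 0.022 to 0.034), and NCU02798 also without trehalose replicate 2 (adjusted p = 0.011). Each of NCU03208, NCU02798, NCU00878 and NCU07351 had a higher mean on cellobiose than on trehalose.

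On the maltose side, 8 of the 12 largest changes among called genes of at least 10 CPM in maltose and without overlap lay in 1 run of neighbours. A run of 13 neighbouring tested genes on chromosome VII (3727404 to 3760745, 33.3 kb), from pre-2 (NCU05758) to poi-2 (NCU05768), was called higher in maltose without a gap, apart from 2 genes in the span that were not tested. Fold changes in the run went from -3.27 to -1.32 with a median of -2.44, and 11 of the 13 had their highest mean of the 10 sources in maltose. The largest was in NCU17268, known only by its identifier, with 4.84, 12.7 and 6.12 CPM in trehalose and 98.5, 78.5 and 52.5 CPM in maltose (log2 fold change -3.27 ± 0.46, adjusted p = 2.3e-05). Its neighbour NCU17271 had 9.37, 22.3 and 13.4 CPM in trehalose and 113, 97.6 and 74.7 CPM in maltose (log2 fold change -2.66 ± 0.36, adjusted p = 1.6e-05). In both, trehalose replicate 2 was the highest of the trehalose samples and still below every maltose sample.

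The ends of the run carried the named genes. The gene poi-2 (NCU05768), named for its abundant transcript in sexual tissue, had 343, 724 and 256 CPM in trehalose and 2482, 2013 and 1150 CPM in maltose (log2 fold change -2.09 ± 0.50, adjusted p = 0.0026). At the other end pre-2, a pheromone receptor gene, was at only 1.74, 1.59 and 0.592 CPM in trehalose and 3.82, 3.29 and 2.67 CPM in maltose (log2 fold change -1.32 ± 0.36, adjusted p = 0.0065). Next to poi-2 lies NCU05767, annotated as a PRO1A zinc finger protein, which was higher in maltose in all samples (log2 fold change -2.16 ± 0.24, adjusted p = 2.5e-06). The call of poi-2 was lost without trehalose replicate 1 (-1.94, adjusted p = 0.016), trehalose replicate 3 (-1.82, adjusted p = 0.017) or maltose replicate 1 (-1.84, adjusted p = 0.013). That of pre-2 was lost without trehalose replicate 2 or 3 or maltose replicate 1 or 2 (adjusted p from 0.013 to 0.047), and NCU05764, in the middle of the run, gave -3.17 without trehalose replicate 2. The genes NCU05763 and NCU17267 overlap, and reads that fall on both may be set aside as ambiguous, so their values are less certain. The nearest tested genes outside the run, NCU05757 beside pre-2 (-0.24) and cat-2 beside poi-2 (-0.68), were not called. Of the 6 tested genes on each side, NCU05756 (-0.83, adjusted p = 0.010) and NCU05771 (-0.66, adjusted p = 1.6e-05) had smaller differences in the same direction as the run, and NCU05775, the farthest on the side of poi-2, was called higher in trehalose (1.02).

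**Figure D5:**
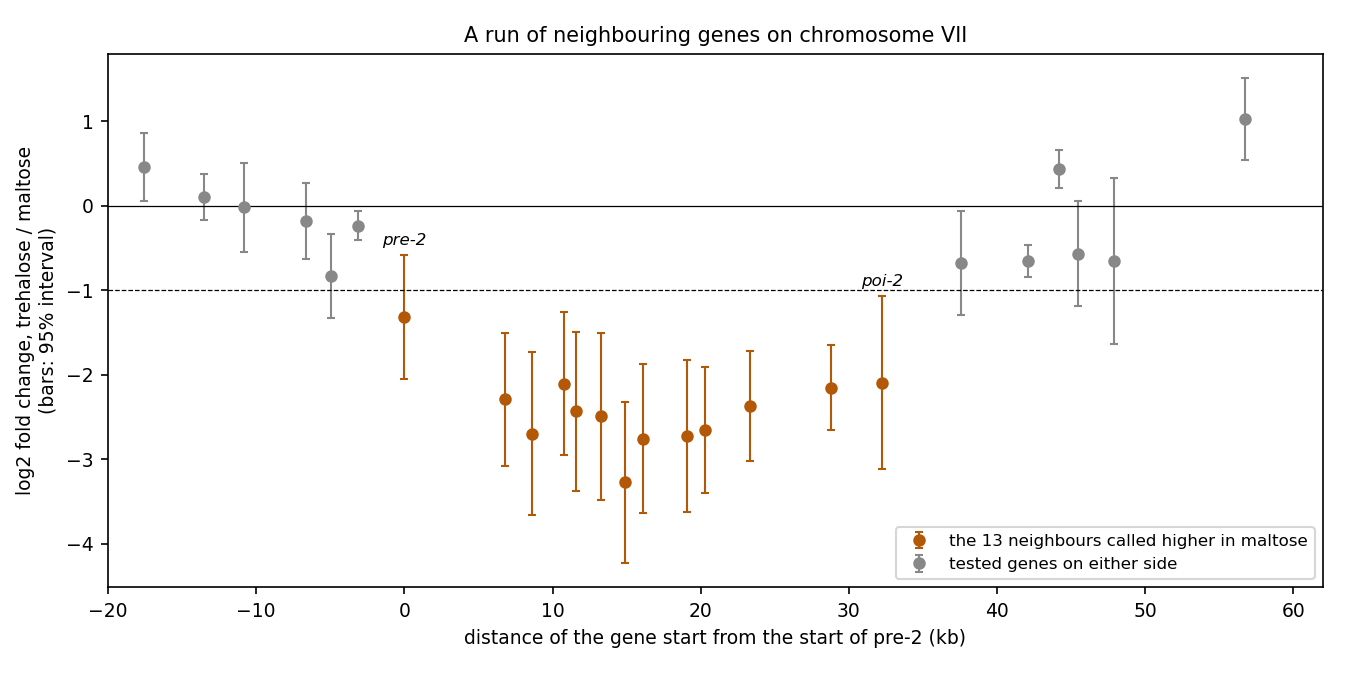
The log2 fold change, trehalose over maltose, of the 13 genes of the chromosome VII run (orange) and of the 6 tested genes on either side (grey) is plotted against the distance of the gene start from the start of pre-2 in kb. Bars are 95% intervals and the dashed line marks a 2-fold difference; the 13 genes lie between -3.27 and -1.32.

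Some genes of mating and asexual spores were also called higher in maltose. The gene ccg-4 (NCU02500), which encodes a mating pheromone precursor, had 14.4, 5.67 and 5.2 CPM in trehalose and 102, 36.2 and 58.4 CPM in maltose (log2 fold change -2.97 ± 0.46, adjusted p = 5.3e-05), and -3.59 without trehalose replicate 1. With poi-2, pre-2 and asd-3 (-1.02) it made 4 of 9 genes of sexual development and pheromones called higher in maltose (44.4%, against 2.58% of all genes), and asd-1, annotated as an ascus development gene and rhamnogalacturonase, was called higher in trehalose (log2 fold change 1.25 ± 0.34, adjusted p = 0.0063). The 4 calls became 2 without trehalose replicate 2 or 3 or maltose replicate 1 or 2, and asd-1 was not called when any 1 replicate was left out (1.01 to 1.41).

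The markers of conidia, the asexual spores, were used to check the labelled tissue, since mycelial cultures can hold conidiating cells. All 4 were present in every sample, and 3 were called higher in maltose (75%, against 2.58% of all genes). The summed level of the 4 was 5610 to 10127 CPM in trehalose and 11256 to 23587 CPM in maltose. Most of that sum was eas, which was not called. In con-6 (NCU08769) levels were 367, 421 and 619 CPM in trehalose and 1503, 3031 and 1727 CPM in maltose (log2 fold change -2.15 ± 0.45, adjusted p = 0.00081). For con-10 (NCU07325) they were 22.6, 14.9 and 31.2 CPM in trehalose and 74.5, 58.9 and 59.4 CPM in maltose (log2 fold change -1.49 ± 0.32, adjusted p = 0.001). Neither overlapped, and con-8 (NCU09235) gave -1.21 ± 0.28 (adjusted p = 0.002). The rodlet protein gene eas (NCU08457), which coats conidia, overlapped between the sugars and was not called (log2 fold change -0.91 ± 0.30, adjusted p = 0.022), with maltose replicate 2 at 20073 CPM and the other 5 samples at 4924 to 9906 CPM. Without trehalose replicate 2 the calls of con-10 (-1.25, adjusted p = 0.012) and con-8 (-1.04, adjusted p = 0.019) were lost, and that of con-8 also without trehalose replicate 3 (-1.16) or maltose replicate 1 (-1.02). The part of conidiating cells in the genes higher in maltose was not tested.

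In the wider list of conidiation and clock output genes, 4 of 15 were called higher in maltose (26.7%, against 2.58% of all genes) and 0 higher in trehalose, and the median was -0.08. The 4 were ccg-4, con-6, con-10 and con-8. The list went both ways: 7 of the 15 members had a fold change above 0, against 52.2% of all genes. In 4 of the 15 (ccg-6, ccg-8, ccg-14 and ccg-15) all trehalose values lay above all maltose values, against 23.9% of all genes. The largest of these was ccg-14, a clock-controlled gene, with 380, 224 and 375 CPM in trehalose and 130, 45.4 and 145 CPM in maltose (log2 fold change 1.61 ± 0.52, adjusted p = 0.020), which was not called. The developmental regulator fl gave 0.07. Directly beside con-6 on chromosome III (5199747 to 5205927) the genes NCU08770 (log2 fold change -1.92 ± 0.43, adjusted p = 0.0017) and NCU08771 made a run of 3 with it, all higher in maltose. The call of NCU08770 was lost without trehalose replicate 1, trehalose replicate 2 or maltose replicate 2 (adjusted p from 0.012 to 0.013). A second run of 3 on chromosome II (4034930 to 4046143), NCU08428 to NCU08431, was also higher in maltose. It holds the MFS transporter gene NCU08428 (log2 fold change -1.48 ± 0.29, adjusted p = 0.00058) and NCU08429, a hypothetical protein (log2 fold change -1.97 ± 0.26, adjusted p = 1.4e-05). The call of its last member, NCU08431, was lost without trehalose replicate 3 (-1.25, adjusted p = 0.010).

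One run of 3 was higher in trehalose, NCU04266 to NCU04268 on chromosome V (5429595 to 5436450). NCU04268 had 629, 487 and 528 CPM in trehalose and 227, 182 and 267 CPM in maltose (log2 fold change 1.28 ± 0.26, adjusted p = 0.00073), and NCU04266 gave 1.23 ± 0.26 (adjusted p = 0.00092). NCU04267, between them, was below 1 CPM in all 6 samples, so its fold change rests on few reads; its call was lost without trehalose replicate 1 or 3 or maltose replicate 1 or 2 (adjusted p from 0.012 to 0.023). That of NCU04266 was lost without maltose replicate 2 (1.03, adjusted p = 0.011).

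Within maltose the replicates differed in a regular way. In 146 of the 199 genes higher in trehalose, maltose replicate 3 was the highest of the maltose samples, and in 147 maltose replicate 2 was the lowest. Among the 219 genes higher in maltose, replicate 3 was the lowest of the maltose samples in 158 and replicate 2 the highest in 120. Maltose replicate 3 was thus nearest to trehalose on both sides. Without maltose replicate 2 the calls were 116 higher in trehalose and 141 higher in maltose, of which 109 and 136 were among the calls with all samples; without trehalose replicate 2 the latter count was 145, and without maltose replicate 3 the counts were 253 and 278. The share of reads outside genes was 2.56%, 6.05% and 4.06% in maltose replicates 1, 2 and 3 and 2.43%, 5.32% and 6.23% in the trehalose replicates, and with it as a covariate 210 and 233 genes were called.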

How the data were processed

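RNA-seq was available for 3 trehalose and 3 maltose samples and for 24 samples on 8 other carbon sources. The authors sequenced libraries on a HiSeq2000, kept reads by base quality, mapped them with TopHat2 2.0.4 to predicted transcripts of the OR74A genome (v12) and counted reads per gene with HTSeq 0.6.0. They deposited raw counts per gene, 1 table per sample, and their own tests used DESeq2 1.10.1 on such counts. Separate rows for reads outside genes (2.43% to 6.23% of the total in the 6 samples), for ambiguous reads and for reads with several map positions were set aside. Near-identical copies can therefore be undercounted.

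Tests ran in edgeR 4.0.16 under R 4.3.3 (filterByExpr, TMM, quasi-likelihood fit to the 30 samples with 1 coefficient per carbon source, contrast trehalose minus maltose; 20 residual degrees of freedom before moderation), with limma 3.58.1, DESeq2 1.42.0 and, in Python 3.11.15, SciPy 1.17.1. Standard errors were derived from each log2 fold change and its F statistic. Counting error is small at these depths, and the number of replicates limits the precision; the labels do not say how the cultures of a group relate, and the study's text calls replicates biological. The fit was tested on simulated data. Replicates of a sugar differed by far more than sampling noise (chi-square per degree of freedom 29.6 to 60.8), so all were kept as separate samples.

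Positions and symbols came from RefSeq, assembly NC12 (9757 of 9758 genes matched). Product names came from annotation columns of the study's supplementary tables, which cover 4397 genes, so list membership is incomplete. Those tables hold genes whose expression the study found changed, so lists filled by product name lean to such genes. Of genes with a product name other than hypothetical, 5.29% were called higher in trehalose and 2.75% higher in maltose. For the remaining genes the shares were 1.18% and 2.51%. The comparison, the lists and the tests were chosen with earlier results of these data known, and 6 lists were added after the values had been seen. Named genes were all tested members of the lists of trehalose metabolism and maltose and starch breakdown, col-26, the 12 largest changes each way among called genes with at least 10 CPM in the higher group and no overlap, up to 4 called members of each other list, and members of runs of at least 3 neighbouring called genes. Genes named outside that rule (NCU01856, NCU04850, NCU03660, hgt-1, NCU05627, NCU04963, gln-1, gln-2, nit-2, eas, fl, hsp30, asd-3, ccg-6, ccg-8, ccg-14, ccg-15, cat-2, NCU05756, NCU05757, NCU05771, NCU05775) were chosen after their values were seen. Only 1 pair of sugars was compared, so p-values were adjusted over genes alone. Alternatives were 14, with 1 added after the data were seen.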

Additional observations from a re-analysis of the deposited data

How the results depend on the processing

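Calls higher and lower in trehalose were 199 and 219. They were 201 and 255 with DESeq2, 186 and 221 without a filter on low counts, 210 and 233 with a covariate for reads outside genes, and 193 and 222 with libraries thinned. Counts moved by over 1.5 times with library size scaling alone (122 and 338), with only the 6 samples in the fit (118 and 141) and in a test against a fold change of 2 (glmTreat, 4 and 10). The 4 were NCU07232, nit-3, NCU05126 and NCU03660, annotated as the FK506 suppressor Sfk1 (fold change 1.73). With 1 replicate left out the counts ran from 116 to 253 and from 141 to 278, the lowest without maltose replicate 2 in both cases. Without trehalose replicate 1 and maltose replicate 2 together, chosen after the data were seen, they were 116 and 119. The cause was not tested.

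Deviations from the group means correlated at 0.405, -0.0375 and -0.0424 for replicate numbers 1, 2 and 3. Not every sample correlated best with its own number. With 3 samples per sugar, these values cannot decide whether samples with the same number shared a batch. The share of reads outside genes was lowest in replicate 1 of both sugars, at 2.43% in trehalose and 2.56% in maltose. With the replicate block the counts were 202 and 225 and the difference in col-26 was -0.34.

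The difference in col-26 kept its sign and stayed uncalled under every alternative, from -0.52 to -0.17. Of 97 named genes, 82 were called; 0 of these changed sign under any alternative, and 44 kept their call under all alternatives other than glmTreat. The sign changed in 5 uncalled genes near 0. NCU00793 gave -0.00984 with DESeq2, -0.13 without TMM, -0.00699 without the filter, -7.7e-05 with the replicate block, -0.0338 with 6 samples, -0.0394 without the pair of doubted replicates and -0.12 to 0.11 without single replicates. The gene tre-2 gave -0.10 without TMM, -0.00405 with 6 samples and -0.10 to 0.29 without single replicates. Without single replicates ccg-9 ranged from -0.41 to 0.0726 and gh13-1 from -0.10 to 0.0539, with 0.00231 under the covariate, and gh13-5 gave 0.0566 without the doubted pair.

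The fit pooled the spread over 10 carbon sources; with the 6 samples alone fewer degrees of freedom are left. At 3 samples per sugar, genes that were not called are not shown to be equal: 6394 of 8501 had intervals inside a 2-fold change. Product names covered fewer than all genes, so counts over lists are of named members only.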

Other observations

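Genes with no product name or annotated as hypothetical proteins were 71.8% of all genes tested. They were 153 of the 219 genes called higher in maltose (69.9%), near that share, and 72 of the 199 called higher in trehalose (36.2%), below it. Of 66 tested genes annotated as MFS transporters or permeases, 11 were called higher in maltose (16.7%, against 2.58% of all genes and 2.75% of genes with a product name) and 2 higher in trehalose (3.03%, against 2.34% and 5.29%). This class was chosen after the values had been seen, so its counts are descriptions. The exo-beta-1,3-glucanase gene NCU04850, of an enzyme class that trims fungal cell wall glucan, was at 305.0, 268 and 303 CPM in trehalose and 1718, 1485 and 810.0 CPM in maltose. All maltose samples were above all trehalose samples (log2 fold change -2.20 ± 0.26, adjusted p = 4.4e-06), and maltose gave the highest mean of the 10 sources.

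NCU01856, annotated as hac1, the transcriptional activator of the unfolded protein response, was higher in trehalose, at 919, 1142 and 1096 CPM against 469, 492 and 555 CPM in maltose (log2 fold change 1.06 ± 0.11, adjusted p = 1.6e-06). Its fold change was 1.00 without trehalose replicate 2 and 0.93 without TMM scaling, neither of which passed the 2-fold threshold. NCU01853, known only by its identifier, was among the largest changes toward maltose, with 34.2, 21.9 and 35.3 CPM in trehalose and 207, 113 and 146 CPM in maltose (log2 fold change -2.35 ± 0.48, adjusted p = 0.0007). NCU08037, a hypothetical protein, had 1.66, 0.761 and 1.97 CPM in trehalose and 14.1, 13.4 and 10.5 CPM in maltose (log2 fold change -3.10 ± 0.52, adjusted p = 0.00012), and its mean on mannose was higher still, at 56 CPM.

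Of 32 genes of plant cell wall breakdown, 1 was called higher in trehalose (3.12%, against 2.34% of all genes) and 2 higher in maltose (6.25%, against 2.58%), with a median of -0.28. The exoglucanase gene gh6-3 had 17.8, 15.4 and 16.7 CPM in trehalose and 58.8, 39.2 and 30.9 CPM in maltose (log2 fold change -1.37 ± 0.28, adjusted p = 0.00074), against 9010 CPM on avicel, a crystalline cellulose. The polygalacturonase gene gh28-1 was higher in trehalose (log2 fold change 1.05 ± 0.23, adjusted p = 0.0012) and lost its call without trehalose replicate 2 (0.90) or maltose replicate 3 (0.97). The cellobiose dehydrogenase gene cdh-2 was at -1.0 and lost its call without trehalose replicates 1, 2 or 3 or maltose replicate 1 (-1.05 to -0.68).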
